A study of Solanum lycopersicum with 3 samples.

Results

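Histones and the proteins that modify, remodel or read chromatin were followed in ripe tomato fruit that carries an added lycopene β-cyclase gene. The members were the array probes whose gene description holds the word histone, chromatin, nucleosome, SWI/SNF, chromomethylase, DNA methyltransferase or polycomb, without those that mention histidine. The rule found 96 of 11863 probes, and it used no measured value. Of these, 48 were described as histone H1, H2A, H2B, H3 or H4, and the other 48 as enzymes and other chromatin proteins, with 2 among them described as a micronuclear linker histone polyprotein. TOM2 long-oligo arrays, read in 2 colours, compared RNA of 2 genotypes. Lycb-1 was the tomato cultivar Zhongshu No. 5 with the open reading frame of the citrus Lycb-1 gene behind the constitutive CaMV 35S promoter, selected on kanamycin. The arrays used progeny of 1 transformant, so line and transgene cannot be told apart. WT was the untransformed cultivar. Fruit of both was grown in a glasshouse, collected 10 days post breaker, the first colour change of ripening, and deseeded. On each of 3 arrays a pool of Lycb-1 fruit was set against a pool of WT fruit, and every pool mixed 4 to 5 fruits taken from 3 plants. Cy5 always marked Lycb-1 and Cy3 always marked WT, without an array of the opposite order, so dye and genotype cannot be told apart for a single gene.

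In the nucleus DNA is wound around octamers of the core histones H2A, H2B, H3 and H4, and the linker histone H1 sits where the DNA enters and leaves each octamer. Plants carry several genes for each histone: some are copied mainly when DNA is replicated, others in resting cells as well, and plants also have linker histones that are induced by water deficit. Acetyltransferases and deacetylases add and remove acetyl groups on histone tails, remodelling ATPases move nucleosomes, chaperones place histones on DNA, and DNA methyltransferases and chromodomain proteins write and read marks of silent chromatin. Ripe fruit flesh divides little, and chromatin proteins, DNA methylation among them, are known to take part in tomato ripening.

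Spots had their background subtracted by the authors, and a spot was counted as checked where its brighter channel reached an intensity of 400. Empty spots rarely exceeded 15 in Cy5 or 34 in Cy3, their highest 99th percentiles. The ratio of Lycb-1 over WT was normalised by print-tip loess, put on the log2 scale, where 1 unit is a 2-fold difference, and tested against 0 with limma for the 5720 probes checked on all 3 arrays. As a check of the labels, nptII (X57709), which gives the transformants their kanamycin resistance, had log2 ratios of 5.65 to 7.99, and the lycopene β-cyclase probe SGN-U221920 had 2.83 to 3.28. Between arrays the log2 ratios of all probes correlated with an r of 0.16 to 0.38, as a description over 5720 probes that share arrays and dyes. The number of arrays limits the precision of every value below, and in whole fruit fewer cells of a type and less RNA per cell cannot be told apart.

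Of the 96 members 53 were tested, 35 of them histones and 18 of them other chromatin proteins. At an adjusted p under 0.05, 0 of the 53 were called by limma, where 3 of all 5720 probes were (0.0524%). The smallest adjusted p of a member in limma was 0.217. At an unadjusted p under 0.05 there were 9 members (17.0%), against a background of 15.4% of all probes, and all 9 were histones: 5 lower in Lycb-1, with a background of 8.62%, and 4 higher, with a background of 6.82%. The 5 lower ones were 4 linker histone probes and 1 H4 probe, and the 4 higher ones were 3 H2A probes and 1 H3 probe. The ratio had the same sign on all 3 arrays for 28 members, 16 higher and 12 lower, against a background of 41.7%. A mean difference of at least 2-fold was seen in 4 members (background 6.28%), of which 4 were lower in Lycb-1 (background 3.76%) and 0 higher (background 2.52%), and all 4 were histones. Thus the share of all members at an unadjusted p under 0.05 was close to that of the array as a whole. All 6 H1 means lay below 0, and each core histone type had means on both sides. A difference between types was not tested. The median log2 ratio was -1.003 for H1, 0.17 for the core histones together, -0.04 for the other chromatin proteins and -0.01 for all probes.

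**Figure D1:**
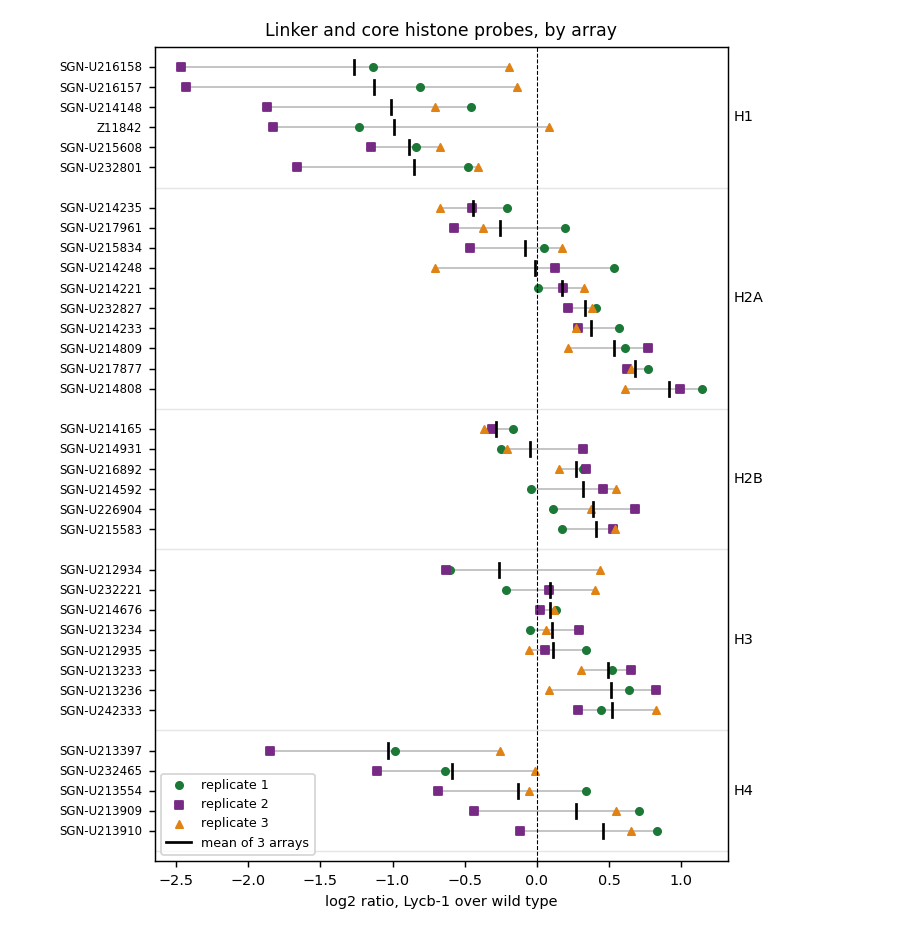
Log2 ratio of Lycb-1 over wild type on the x axis for each of the 35 tested histone probes, grouped by type, with 1 point for each array and a bar at the mean of 3 arrays. The 6 H1 probes lie at means of -1.27 to -0.85, H2A spans -0.44 to 0.92, and H4 spans -1.03 to 0.46.

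The linker histone H1, which holds the DNA between nucleosomes, had the lowest ratios of the histone types. All 6 of its probes on the array were tested, and all 6 had a mean below 0. At an unadjusted p under 0.05 there were 4, beside 8.62% of all probes lower, and at an adjusted p under 0.05 there were 0. On all 3 arrays 5 were lower in Lycb-1, where 21.3% of all probes were. Among the means of all 5720 probes the 6 stood between the lowest 1.94% and the lowest 5.58%. The 6 probes are not 6 separate genes with certainty: they have 3 best-matching proteins between them, and probes of near-identical copies may bind each other's transcripts.

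SGN-U216158, described as an H1 histone-like protein of tomato, had normalised intensities of 33544, 81890 and 30356 in the WT pools of replicates 1, 2 and 3. In the Lycb-1 pools it had 15268, 14813 and 26510. The groups did not overlap, but the WT pool of replicate 2 stood far above the other 2, while the Lycb-1 pool of replicate 3 nearly reached the WT range. Its mean log2 ratio was -1.27 (SE 0.45, n = 3 arrays), which is 2.40-fold lower in Lycb-1, with an unadjusted p of 0.0369 and an adjusted p of 0.296 in limma. The deposited WT intensity of replicate 2 was 94.5% of the highest Cy3 value on that array, and 0 members were within 1% of the highest value in either channel of an array. SGN-U216157, matched to the same tomato protein, had 6663, 18484 and 6510 in WT and 3792, 3430 and 5920 in Lycb-1. It showed the same order of pools without overlap, and its mean was -1.13 (SE 0.46, limma unadjusted p = 0.0583). Z11842, the third probe with this match, had 27171, 20741 and 20665 in WT and 11541, 5837 and 21944 in Lycb-1. Here the groups overlapped, because the Lycb-1 pool of replicate 3 was level with WT (log2 ratio 0.09), and the mean was -0.99 (SE 0.40, limma unadjusted p = 0.0540).

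The smallest p of the linker histones belonged to SGN-U215608, which matched histone H1E of tobacco. It had 3572, 3567 and 5850 in WT and 2001, 1608 and 3669 in Lycb-1. Within each array WT was higher, and the log2 ratios of -0.84, -1.15 and -0.67 were the most even of the type. The mean was -0.89 (SE 0.20), or 1.85-fold lower, with an unadjusted p of 0.00620 and an adjusted p of 0.217 in limma. The last pair, SGN-U214148 and SGN-U232801, matched a common histone H1 protein. SGN-U214148 had 3140, 7716 and 11264 in WT and 2284, 2109 and 6902 in Lycb-1. SGN-U232801 had 3301, 6832 and 10073 in WT and 2368, 2160 and 7581 in Lycb-1. Both were lower in Lycb-1 within every array although the pools of the genotypes overlapped, since replicate 3 had the highest level in either genotype. Their means were -1.01 (SE 0.33) and -0.85 (SE 0.31), at unadjusted p of 0.0261 and 0.0402 in limma.

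The size of the linker histone difference was not the same from array to array. All 6 probes had their lowest ratio on replicate 2, with a median of -1.85, and 5 of 6 had their highest on replicate 3, with a median of -0.30, while replicate 1 lay between at -0.82. Without replicate 2 the median over the 6 probes was -0.58 in place of -1.003, and 1 of the 6 stayed at an unadjusted p under 0.05. The means ran from -0.75 to -0.44 there, and from -1.02 to -0.56 with median centring of each array in place of loess. SGN-U216158 moved to -0.67 without replicate 2 and to -0.56 with median centring (adjusted p = 0.475 in limma), both less than 2-fold. All 6 means stayed below 0 without any 1 of the arrays. On replicate 3 the deposited intensity of SGN-U216158 before normalisation was 30086 in Lycb-1 and 23252 in WT, so the sign of its log2 ratio there, -0.20, rested on the correction for dye.

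**Figure D2:**
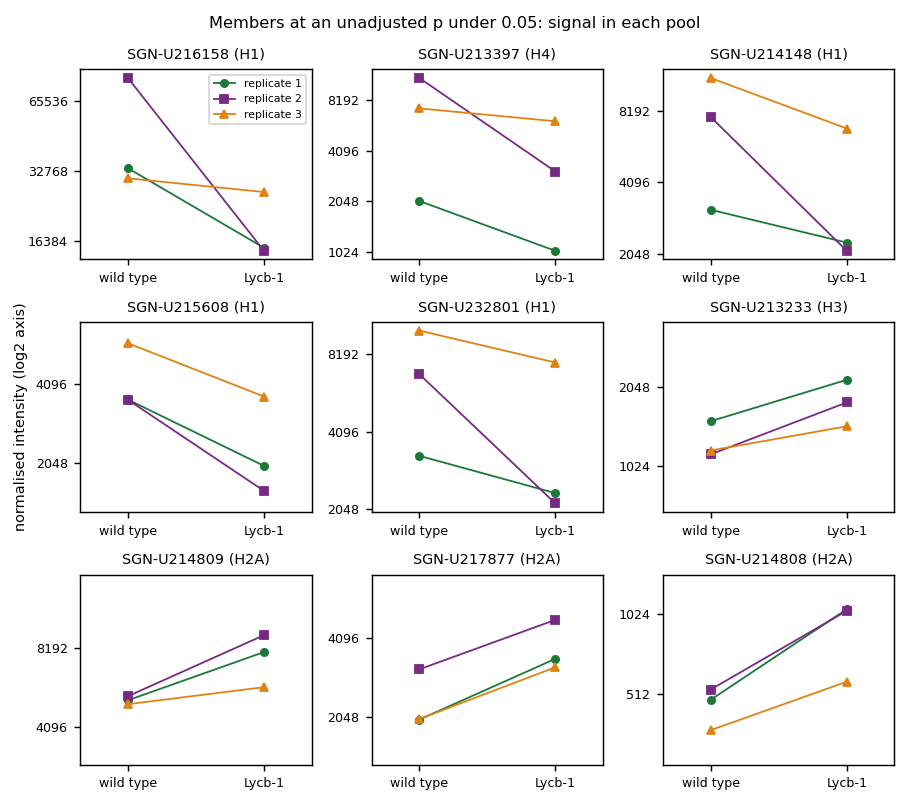
Normalised intensity on a log2 axis in the WT and Lycb-1 pools of each array, joined by a line per array, for the 9 members at an unadjusted p under 0.05. The 4 H1 probes and the H4 probe slope down, most steeply on replicate 2, and the 3 H2A probes and the H3 probe slope up on all 3 arrays.

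Histone H2A, which pairs with H2B at the outer faces of the nucleosome, was the type with the most tested probes, 10 of 11. On all 3 arrays 6 of the 10 were higher in Lycb-1, where 20.4% of all probes were. The same held for 3 of 6 tested H2B probes and 4 of 8 tested H3 probes. At an unadjusted p under 0.05, 3 were higher and 0 lower, beside 6.82% and 8.62% of all probes, and the 3 became 1 without replicate 1 and 1 without replicate 3. The median log2 ratio was 0.25, with array medians of 0.47, 0.20 and 0.24. Both probes matched to a histone H2A-like protein of eggplant were among the 3. SGN-U214808 had 485, 531 and 372 in WT and 1071, 1056 and 568 in Lycb-1. All Lycb-1 pools stood above all WT pools, and its mean log2 ratio of 0.92 (SE 0.20, 1.89-fold) was the highest of all members, with an unadjusted p of 0.00606 and an adjusted p of 0.217 in limma. SGN-U214809 had 5180, 5369 and 5006 in WT and 7897, 9156 and 5810 in Lycb-1. Again the pools did not overlap, and the mean was 0.53 (SE 0.20, limma unadjusted p = 0.0477).

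The other H2A probe of the 3, SGN-U217877, shared its best-matching castor bean protein with SGN-U232827 and SGN-U214221. SGN-U217877 had 2010, 3118 and 2019 in WT and 3419, 4809 and 3176 in Lycb-1. Its log2 ratios of 0.77, 0.62 and 0.65 were nearly even, and the mean was 0.68 (SE 0.18, limma unadjusted p = 0.0120, adjusted p = 0.244), or 1.60-fold. SGN-U232827 had 2122, 2276 and 2188 in WT and 2818, 2644 and 2847 in Lycb-1, a mean of 0.34 (SE 0.18). SGN-U214221 had 6151, 5421 and 5068 in WT and 6189, 6155 and 6357 in Lycb-1, a mean of 0.17 (SE 0.19). In all 3 the pools did not overlap, though in SGN-U214221 the gap was as narrow as 6151 against 6155 and the ratio on replicate 1 was 0.01.

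The remaining H2A probes lay on both sides of 0. A pair with 1 poplar protein as best match went apart: SGN-U214233 had log2 ratios of 0.57, 0.28 and 0.27 (mean 0.37, SE 0.19), and SGN-U214235 had -0.20, -0.45 and -0.67 (mean -0.44, SE 0.20), each with 1 sign on all 3 arrays and neither at an unadjusted p under 0.05. SGN-U217961, at a mean of -0.25 (SE 0.23), and SGN-U215834, at -0.08 (SE 0.21), changed sign between arrays. SGN-U214248, the tomato gene named LeH2A-1, ran from 0.53 on replicate 1 to -0.70 on replicate 3 and averaged -0.01 (SE 0.29). Over all members tested, the WT and Lycb-1 pools did not overlap for 11 of 53, 20.8%, against a background of 16.4%, and 6 of the 11 were H2A probes. Of these 6 SGN-U214235 was lower in Lycb-1, with 2963, 3243 and 2753 in WT and 2573, 2377 and 1727 in Lycb-1, and the rest were higher.

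For H2B, the partner of H2A, 6 of 8 probes were tested, and 0 were at an unadjusted p under 0.05, beside 15.4% of all probes. The median was 0.30, and 4 of the 6 means were above 0. These were SGN-U215583 at 0.41 (SE 0.19), SGN-U226904 at 0.39 (SE 0.20), SGN-U214592 at 0.32 (SE 0.21) and SGN-U216892 at 0.27 (SE 0.18). On all 3 arrays 3 of them were higher, beside 20.4% of all probes, and SGN-U214592 was level on replicate 1 (-0.04). In SGN-U216892 the pools did not overlap, with 1425, 1599 and 1471 in WT and 1779, 2023 and 1636 in Lycb-1. On the other side stood SGN-U214165 at -0.28 (SE 0.18), lower on all 3 arrays, and SGN-U214931 at -0.05 (SE 0.21), higher on replicate 2 alone. SGN-U214165 and SGN-U214592 have the same best-matching protein and means on opposite sides of 0, neither at an unadjusted p under 0.05. With median centring in place of loess both means were above 0, at 0.0820 and 0.0430. A difference between the probes was not tested.

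Histone H3, whose tail carries most of the known methylation marks, had 16 probes, of which 8 were tested. Of their means 7 were above 0 and 1 below, and the median was 0.11. On all 3 arrays 4 probes were higher, beside 20.4% of all probes. SGN-U213233 was the only one at an unadjusted p under 0.05, where 15.4% of all probes were. It had 1514, 1134 and 1172 in WT and 2176, 1785 and 1449 in Lycb-1. The pools overlapped, but the log2 ratios were 0.52, 0.65 and 0.31, with a mean of 0.49 (SE 0.19, 1.41-fold, limma unadjusted p = 0.0455, adjusted p = 0.316). SGN-U242333, described as similar to H3 histone family 3B, had 0.44, 0.29 and 0.83, with a mean of 0.52 (SE 0.20, limma unadjusted p = 0.0506). SGN-U213236 had 0.64, 0.83 and 0.08, with the same mean of 0.52 (SE 0.23). The other 5 means were nearer 0. SGN-U212935, SGN-U213234, SGN-U214676 and SGN-U232221 averaged 0.09 to 0.11, each with an SE of 0.18 to 0.21. SGN-U212934, one of the brightest members with 21037, 24879 and 13399 as deposited in WT and 23884, 28633 and 24580 in Lycb-1, had normalised ratios of -0.60, -0.63 and 0.44 and averaged -0.27 (SE 0.28). Before normalisation its Lycb-1 channel was the higher on each array, and under median centring in place of loess its mean was 0.31.

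Histone H4, the most conserved of the core histones, had 5 of 7 probes tested and the widest disagreement between probes of the core types. SGN-U213397 had normalised intensities of 2057, 11081 and 7309 in WT and 1040, 3079 and 6127 in Lycb-1. Its level differed several-fold between arrays in either genotype, and the pools overlapped. Its log2 ratios were -0.98, -1.85 and -0.25. The mean of -1.03 (SE 0.34, 2.04-fold lower, limma unadjusted p = 0.0284, adjusted p = 0.282) was the only one of at least 2-fold outside H1. As in H1, replicate 2 was lowest and replicate 3 nearest 0. SGN-U232465 followed at -0.59 (SE 0.27), with -0.64, -1.11 and -0.02. On replicate 3 the deposited intensity of SGN-U213397 was 6770 in Lycb-1 and 6163 in WT, and that of SGN-U232465 was 1949 and 1811. The sign of both ratios on that array thus rested on the correction for dye. SGN-U213554 averaged -0.13 (SE 0.26), SGN-U213909 0.27 (SE 0.29) and SGN-U213910 0.46 (SE 0.25), each with both signs among the arrays. All 5 had their lowest ratio on replicate 2, where the H4 median was -0.69 against 0.34 on replicate 1 and -0.02 on replicate 3. The probes SGN-U213397, SGN-U213554 and SGN-U213910 have 1 best-matching protein and still ran from -1.03 to 0.46, so no single H4 value stands for the type. The H4 median of -0.13 became 0.14 without replicate 2.

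Chromatin modifiers and other chromatin proteins had means closer to 0. Of the 18 tested, 0 were at an unadjusted p under 0.05 in limma, against the background of 15.4%, and 0 at an adjusted p under 0.05. On all 3 arrays 3 were higher and 3 lower, beside 20.4% and 21.3% of all probes. The means ran from -0.41 to 0.37 with standard errors of 0.18 to 0.27, so the 95% interval of each held 0.

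**Figure D3:**
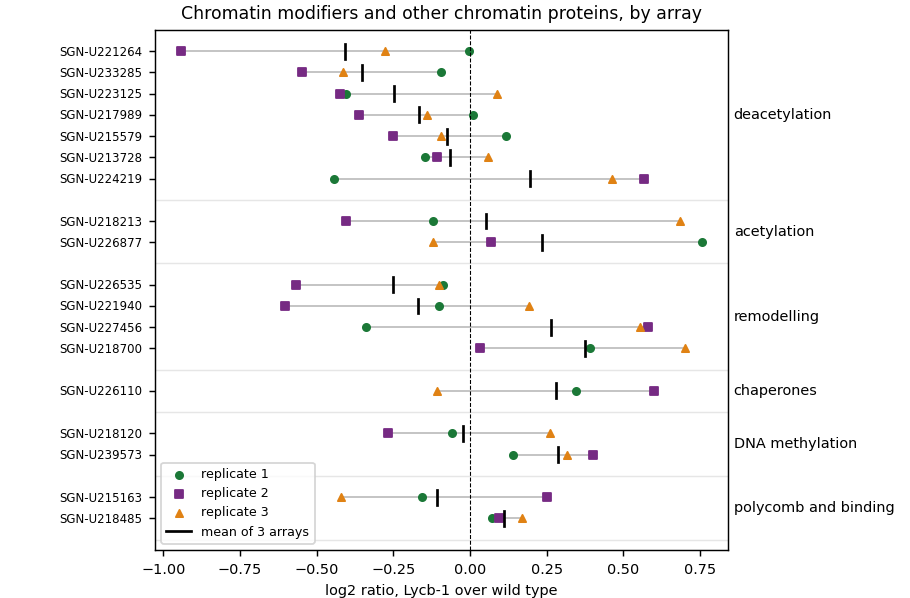
Log2 ratio of Lycb-1 over wild type on the x axis for the 18 tested members that are no histones, grouped by role, with 1 point for each array and a bar at the mean of 3 arrays. The means lie between -0.41 and 0.37, and most probes have arrays on both sides of 0.

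The deacetylation group holds deacetylases, which remove acetyl groups from histones, and probes described as a SIN3 component of the deacetylase complex. Of its 13 probes 7 were tested, all described as deacetylases. Of the 7 means 6 were below 0, with a median of -0.17. The lowest was SGN-U221264, similar to HDA6, a deacetylase that in Arabidopsis works in gene silencing. Its log2 ratios were 0.00, -0.94 and -0.28, with a mean of -0.41 (SE 0.25, 95% interval -1.05 to 0.23), so replicate 2 carried most of it. A further probe with the HDA6 description, SGN-U224219, had the only mean above 0 of the group, 0.19 (SE 0.27). SGN-U233285 matched HDT1, of the HD2 family that is found in plants, and had -0.09, -0.55 and -0.41, with a mean of -0.35 (SE 0.20). The other HDT1 matches, SGN-U217989 and SGN-U215579, averaged -0.17 and -0.08, and SGN-U213728, described as a histone deacetylase of poplar, -0.07. The deposited Lycb-1 intensity of SGN-U223125 was below 400 on 2 arrays, and its mean was -0.25 (SE 0.21).

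The acetylation group holds acetyltransferases, which add the acetyl groups, and a component of an acetyltransferase complex. Of its 6 probes 2 were tested, both described as acetyltransferases. SGN-U226877 had 0.76, 0.07 and -0.12, a mean of 0.23 (SE 0.24). SGN-U218213 had -0.12, -0.41 and 0.68, a mean of 0.05 (SE 0.27). Neither kept 1 sign over the arrays. For the remodelling complex subunits, described as such from poplar, 4 of 11 probes were tested and the median was 0.05. SGN-U218700 was higher on all 3 arrays, at 0.39, 0.03 and 0.70, with a mean of 0.37 (SE 0.21), and its normalised intensities of 910, 928 and 787 in WT and 1193, 948 and 1279 in Lycb-1 did not overlap. SGN-U227456 averaged 0.26 (SE 0.26), with replicate 1 on the other side at -0.34. The other remodelling probes had means below 0. SGN-U226535 was lower on all 3 arrays, at -0.09, -0.57 and -0.10, with a mean of -0.25 (SE 0.20), and its Lycb-1 intensity was below 400 on 1 array. SGN-U221940 averaged -0.17 (SE 0.23), with replicate 3 on the other side at 0.19.

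Of the histone chaperones and assembly factors 1 of 7 was tested. SGN-U226110 matched SSRP1, the subunit of the FACT complex that opens nucleosomes for polymerases. Its ratios were 0.35, 0.60 and -0.11, with a mean of 0.28 (SE 0.22, 95% interval -0.28 to 0.84). In the DNA methylation group 2 of 4 were tested. SGN-U239573 matched DNMT2, which belongs to the DNA methyltransferases by sequence and is known as a tRNA methyltransferase, and was higher on all 3 arrays at 0.14, 0.40 and 0.32, with a mean of 0.29 (SE 0.18). SGN-U218120, a protein associated with DNA methyltransferase 1, averaged -0.02 (SE 0.20). SGN-U215163 matched tomato LHP1, a chromodomain protein that binds the polycomb mark on histone H3 in Arabidopsis. It had -0.16, 0.25 and -0.42, a mean of -0.11 (SE 0.21). SGN-U218485, described as a chromatin binding protein, had 0.07, 0.10 and 0.17 and averaged 0.11 (SE 0.18, 95% interval -0.34 to 0.57). With those intervals a 2-fold difference lies outside the range for SSRP1, DNMT2, LHP1 and SGN-U218485 and just inside it for the lower HDA6 probe.

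The 43 members that were not tested had low signal. In 33 of them both channels stayed below 400 on all 3 arrays, between -45 and 380 after background subtraction, and no fold is given for them. They were 7 H3, 2 H2B, 1 H2A and 1 H4 probes and 6 of the 7 chaperone and assembly probes. The others were 5 remodelling, 3 deacetylation, 2 acetylation and 2 DNA methylation probes, the 2 linker histone polyproteins, 1 demethylase and 1 polycomb-like probe. The 33 held the only centromere-specific H3 (SGN-U234971) and the only chromomethylase (SGN-U220717). They also held HIRA (SGN-U224454), a chaperone that deposits H3 outside DNA replication. The subunit of chromatin assembly factor 1 (SGN-U226689), which deposits histones behind the replication fork, was another. These 4 were picked by their description, after their values had been seen. A further 10 members were checked on 1 or 2 arrays: 3 deacetylation, 2 acetylation and 2 remodelling probes, 1 demethylase, 1 H3 and 1 H4. The H4 probe SGN-U214722, for example, had 138, 317 and 807 in WT and 146, 551 and 691 in Lycb-1 as deposited, with the genotypes overlapping. The chaperones were therefore described by 1 probe and the demethylases by 0, and those tested came from the brighter part of each group.

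Genes whose products work beside the histones when DNA is copied were read from lists made from words in descriptions. Beside their counts at an unadjusted p under 0.05 stand 6.82% of all probes higher and 8.62% lower. Of 28 DNA replication probes 7 were tested, with a median of 0.03, and 1 was higher at an unadjusted p under 0.05 and 0 lower. That was SGN-U218616, a match to MCM5 of the replicative helicase, with 1.06, 1.30 and 0.45 and a mean of 0.93 (SE 0.24, limma unadjusted p = 0.0107, adjusted p = 0.242). The lowest was SGN-U223317, replication factor A 1, at -0.42 (SE 0.22). Of 57 cell cycle probes 14 were tested, with a median of 0.08 and 1 probe on each side at an unadjusted p under 0.05. The higher was SGN-U213038, of the cyclin family, at 0.80 (SE 0.25), the highest mean of the list. The lower was SGN-U223396, a cyclin A3, at -0.62 (SE 0.21, limma unadjusted p = 0.0298, adjusted p = 0.285), lower on all 3 arrays. A further probe with the cyclin A3 description, SGN-U229622, had -0.15, -0.20 and -0.03, with a mean of -0.13 (SE 0.18). The lowest mean of the list was that of SGN-U216838, a kinesin light chain, at -0.65 (SE 0.26, limma unadjusted p = 0.0549). The high mobility group proteins bend DNA and bind nucleosomes, and all 5 of their probes were tested, with a median of 0.06. Their lowest was SGN-U214397 at -0.77 (SE 0.19, limma unadjusted p = 0.00963, adjusted p = 0.240), lower on all 3 arrays, and their highest SGN-U217455 at 0.27 (SE 0.18). The medians of these 3 lists lay near that of all probes.

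**Figure D4:**
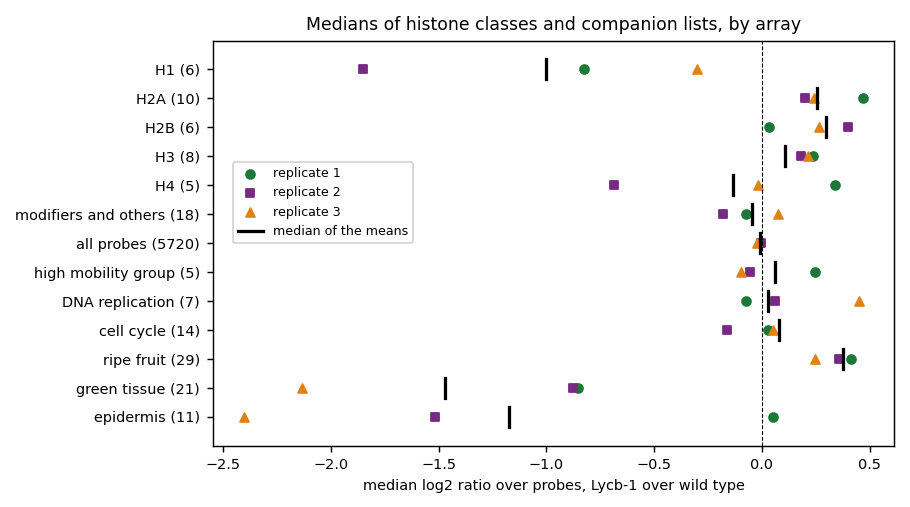
Median log2 ratio of Lycb-1 over wild type on the x axis for each histone type, the other chromatin proteins, all probes, and the companion and tissue lists, with the number of tested probes in brackets, 1 point per array and a bar at the median of the means. H1 lies at -1.003, lowest on replicate 2, and the green tissue and epidermis lists lie at -1.47 and -1.17, lowest on replicate 3. The ripe fruit list lies at 0.38.

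Markers of tissues within the fruit were read in the same way, and 0 of them were called at an adjusted p under 0.05 in limma. Their counts at an unadjusted p under 0.05 stand beside 6.82% of all probes higher and 8.62% lower. Ripe fruit genes had a median of 0.38 over 29 of 57 probes, 10 higher and 2 lower at an unadjusted p under 0.05, and a summed normalised signal of 570107 to 652675 in Lycb-1 against 298023 to 378918 in WT. Chlorophyll a/b binding proteins of green tissue had a median of -1.47 over 21 of 33 probes, 14 lower and 0 higher, with sums of 8381 to 38813 against 27531 to 65352. The epidermal words found 20 probes, of which 11 were tested, 10 of lipid transfer families and 1 wax synthase (SGN-U223487, 0.09). Their median was -1.17, with 4 lower and 0 higher and with sums of 29953 to 50436 against 58764 to 125278. The arrays differed, with an epidermal median of 0.05 on replicate 1 and -1.51 on replicate 2. On all 3 arrays 4 of the 11 were lower, beside 21.3% of all probes. The ripe fruit and epidermal sums did not overlap between the genotypes, and the green sums did. By medians the order of the arrays was unlike that of H1. Both green and epidermal medians were lowest on replicate 3, at -2.13 and -2.41, where H1 was nearest 0. The WT sums of both lists were highest on replicate 2, at 65352 and 125278. The WT pools of SGN-U216158 and SGN-U216157 were highest there too, and those of the other H1 probes were not. For ripe fruit the WT sum was lowest on replicate 2, at 298023, and the Lycb-1 sum highest, at 652675. The ripe fruit median was highest on replicate 1, at 0.41. Seed words found 8 probes, of which 3 were tested, with sums of 16509 to 21699 against 14992 to 22749. They were a steroleosin and 2 of a protease inhibitor, seed storage and lipid transfer family that the epidermal list holds too. At an unadjusted p under 0.05, 1 was higher and 1 lower, so the sums join opposite directions. The steroleosin, SGN-U216554, had 1.61, 2.91 and 0.53, with a mean of 1.68 (SE 0.47, limma unadjusted p = 0.0152). SGN-U218425, of the shared family, had a mean of -1.45 (SE 0.43, limma unadjusted p = 0.0201). The part of these tissues in the histone values was not tested.

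**Figure D5:**
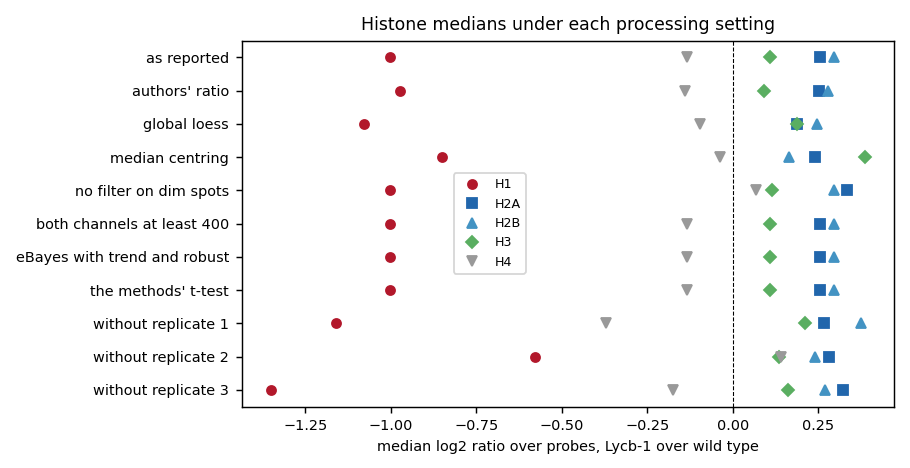
Median log2 ratio of Lycb-1 over wild type on the x axis for the tested probes of each histone type, under the reported processing and each alternative on the y axis. H1 stays below 0 in every setting shown and moves from -1.003 to -0.58 without replicate 2, H2A, H2B and H3 stay above 0, and H4 lies on either side.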

How the data were processed

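Ripe fruit RNA of 3 pairs of pools was hybridised to 3 two-colour arrays. The intensities as deposited had been background-subtracted and not balanced between dyes. The deposited ratio is Lycb-1 over WT after the authors' print-tip lowess. The value table deposited by the authors holds log2 of that ratio. Control probe names (13) and empty spots were removed, the intensities were normalised by print-tip loess over 48 blocks of 286 spots with those spots at weight 0, values at or below 0 were left out, and spots of 1 probe were averaged. Spots checked on all arrays (5846, brighter channel at least 400) gave 5720 probes. The mean log2 ratio was tested, two-sided, with limma 3.58.1 (R 4.3.3; lmFit and eBayes, prior degrees of freedom 3.06) and Benjamini-Hochberg adjustment over the 5720 probes, and the steps were tested on simulated data. Each SE is that of 3 arrays with limma's moderated variance. Normalised intensities are the 2 channels after loess and quantile scaling of their average between arrays. Every array carried 1 spot of each tested member. Pools were mixed from separate plants, and p-values measure the spread between these pools.

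The members, classes and lists were chosen with earlier results of these data known, and described by counts and medians beside all probes. Classes followed the gene descriptions. Named were every tested histone probe, the 2 members of each other class with the largest absolute mean, the highest and lowest probe of each companion list, nptII and the lycopene β-cyclase probe. The other tested members, SGN-U223487, SGN-U223396, SGN-U229622, SGN-U213992, SGN-U212800, SGN-U216554, SGN-U218425 and the untested members named by description were added after their values were seen. The reference table matched 0 of 11863 probe names, so positions and sequences were not used here. The authors' lists of differentially expressed spots hold their findings and were not used as results. Alternatives covered the normalisation, the dim-spot filter, the variance model, the test and each array left out. Plots came from Python 3.11.15 with matplotlib 3.10.9.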

Additional observations from a re-analysis of the deposited data

How the results depend on the processing

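At an adjusted p under 0.05 the members called stayed at 0 under all 10 alternatives, with unadjusted calls of 3 to 12 members in place of 9. For all probes, the 3 calls became 0 with the authors' ratio, with no filter on dim spots, with eBayes with trend and robust and with the methods' t-test, 1 with both channels at least 400, 9 with global loess, 16 with median centring, and 0 to 1 with an array left out. Members lower at an unadjusted p under 0.05 numbered 3 with median centring, 3 with no filter, 2 with the methods' t-test and 1 to 8 with an array left out (2, 1 and 8 without replicate 1, 2 and 3), in place of 5, and members higher 1 to 3 in place of 4 (1 and 2 without replicates 1 and 3). Members lower on every array were 7 with median centring and 14 to 19 with an array left out, in place of 12. The H3 median of 0.11 was 0.19 with global loess, 0.39 with median centring and 0.13 to 0.21 with an array left out. The H1, H2A, H2B and H3 medians kept their sign under all 10 alternatives. So did that of the DNA methylation group, whose tested probes matched DNMT2 and a protein associated with DNA methyltransferase 1. Its only chromomethylase was not tested. Medians of the other 6 groups changed sign under an alternative, among them with median centring deacetylation to 0.0323, acetylation to -0.17, remodelling to -0.0479 and polycomb and chromatin binding to -0.0958, with global loess the last to -0.16 and acetylation to -0.0560, with no filter H4 to 0.0687 and chaperones and assembly to -0.0235, and without replicate 2 H4 to 0.14. DNA methylation, with 1 probe left where both channels reached 400, was at 0.29. The cause of these shifts was not tested.

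Of the 53 tested members 36 kept their direction under every alternative that gave them a value, the 6 H1 probes among them. With median centring the direction turned for SGN-U212934 (0.31), SGN-U214165 (0.0820), SGN-U214676 (-0.0501), SGN-U214931 (0.0540), SGN-U215834 (0.0119), SGN-U213728 (0.0323), SGN-U215579 (0.0705), SGN-U217989 (0.0674), SGN-U218213 (-0.27) and SGN-U226877 (-0.0575). With global loess it turned for SGN-U217989 (0.0112), SGN-U218120 (0.0737), SGN-U218213 (-0.19) and SGN-U218485 (-0.0762), and with the authors' ratio for SGN-U218213 (-0.0118). With 1 array left out, the mean ranged from -0.37 to 0.14 for SGN-U213554, -0.29 to 0.33 for SGN-U214248, -0.23 to 0.0565 for SGN-U214931, -0.29 to 0.0474 for SGN-U215163, -0.21 to 0.11 for SGN-U215834, -0.17 to 0.0109 for SGN-U215579, -0.16 to 0.10 for SGN-U218120, -0.26 to 0.28 for SGN-U218213, -0.35 to 0.0463 for SGN-U221940, -0.0270 to 0.41 for SGN-U226877 and -0.0666 to 0.24 for SGN-U232221. No paired analysis was possible beyond the test reported because that test itself pairs a Lycb-1 pool with a WT pool on each array. Low signal limits the 43 untested members, and 0 tested histone probes had a channel below 400.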
